A study of Mus musculus with 12 samples.

Results

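The 5p and 3p arms of miR-146a, miR-146b, miR-155 and miR-21a are 8 of the 1978 mature mouse miRNAs in the deposited count table. They were chosen by name, as miRNAs that respond to NF-κB or STAT3 signalling. No threshold on measured values was used, but earlier results of these data were known when they were chosen. Small RNA was sequenced from the colon and the whole blood of the same 6 C57BL/6 male mice, obtained at 8 weeks of age, giving 12 libraries with 3 mice for each tissue and treatment. DSS mice drank water with 1.5% (wt/vol) dextran sulfate sodium for 7 days, which damages the lining of the large bowel, and control mice drank the same water without it over the same time. All mice were killed on day 8, so the model is an acute one, and the 6 mice had been picked from a larger set by their disease activity score.

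The labels did not settle the groups. Following the study, the DSS group was made of mice 1, 7 and 9 and the control group of mice 2, 4 and 8. In the disease state field, colitis is instead given for mice 1, 2 and 4 and control for mice 7, 8 and 9, and the tests of DSS against control for the members, and the ratios between them, were also made under that grouping, while the marker and immune lists and the summed miR-146 level were not. Each library also has a source field and a tissue field that contradict each other, and the library names of the deposited colon and blood tables were followed. The 8 epithelial miRNAs fixed as markers (the miR-200 family, miR-192-5p, miR-194-5p and miR-215-5p) summed to 52900 to 195000 CPM (counts per 1000000 counts of a library, after TMM scaling over the libraries of a tissue) in the colon libraries and 943 to 1310 CPM in the blood libraries, so the libraries called colon carried the epithelial miRNAs. Total counts per library ran from 15060553 to 20106226 in colon and from 21127134 to 32944792 in blood.

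miR-146a, miR-146b and miR-155 are induced when Toll-like receptors or cytokine receptors activate NF-κB. miR-146a and miR-146b repress the adaptors TRAF6 and IRAK1 and thereby dampen the same pathway, whereas miR-155 represses SOCS1 and SHIP1 and tends to sustain inflammatory signalling in macrophages and lymphocytes. miR-21a is transcribed under STAT3 and AP-1, is abundant in most tissues, and represses PDCD4. Each hairpin can yield a 5p and a 3p strand, of which usually only one is kept in Argonaute and guides repression through its seed, bases 2 to 8 from the 5′ end.

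The mature sequences are shown because the seed sets which members can be expected to share targets and the bases outside it set which members the reads can tell apart. They are those of the deposited tables, 5′ to 3′, with the seed in capitals, and all 8 are identical to the RefSeq entries on GRCm38.p6.
mmu-mir-146a-5p: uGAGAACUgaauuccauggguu
mmu-mir-146b-5p: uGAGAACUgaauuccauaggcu
mmu-mir-146a-3p: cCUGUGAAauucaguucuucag
mmu-mir-146b-3p: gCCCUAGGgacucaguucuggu
mmu-mir-155-5p: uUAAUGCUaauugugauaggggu
mmu-mir-155-3p: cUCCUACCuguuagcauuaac
mmu-mir-21a-5p: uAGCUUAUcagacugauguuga
mmu-mir-21a-3p: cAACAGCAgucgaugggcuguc
mmu-mir-21b: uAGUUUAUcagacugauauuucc
mmu-mir-21c: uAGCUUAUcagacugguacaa
The last 2 lines are near copies of miR-21a and not members. miR-146a-5p and miR-146b-5p were the only 2 with the seed GAGAACU among the 1405 miRNAs whose sequences were deposited. Over their 22 bases they differ at 2 positions, counted from the 5′ end of miR-146a-5p, G18A and U21C. Their first 17 bases are identical, so a read cut before base 18 would fit both, and the share of such reads was not tested. The 3p arms of the pair have different seeds. miR-21a-5p shares the seed AGCUUAU with miR-21c and differs from miR-21b inside the seed, at C4U. The remaining members had seeds that none of the other deposited sequences holds.

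The 4 genes lie apart in the genome (GRCm38, GENCODE M21). Mir146, the gene of miR-146a, spans chr11:43374397-43374461 on the minus strand between genes, 45789 bases from the nearest protein-coding gene, Pttg1. Mir146b spans chr19:46342762-46342870 on the plus strand in an intron of Mfsd13a, which is on the same strand. Mir155 spans chr16:84714140-84714204 on the plus strand inside exon 2, the last exon, of its noncoding host Mir155hg. Mir21a spans chr11:86584067-86584158 on the minus strand inside exon 12, the last exon, of the protein-coding gene Vmp1, in the 3′ UTR. The RefSeq hairpins of miR-146a, miR-146b and miR-155 are given to place the arms, which are in capitals with the 5p arm first.
Mir146 hairpin: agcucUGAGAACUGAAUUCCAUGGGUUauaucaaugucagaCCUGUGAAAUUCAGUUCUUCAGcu
Mir146b hairpin: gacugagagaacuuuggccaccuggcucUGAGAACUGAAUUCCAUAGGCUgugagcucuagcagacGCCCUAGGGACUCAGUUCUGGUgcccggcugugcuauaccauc
Mir155 hairpin: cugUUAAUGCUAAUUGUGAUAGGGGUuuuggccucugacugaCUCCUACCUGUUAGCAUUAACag

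The 8 members covered nearly the whole range of abundance. The members are 21 to 23 bases long. Their levels are set side by side as counted, with no correction for how well each sequence is ligated and amplified, which was not tested. miR-21a-5p ranked 2 to 9 among all miRNAs in the colon libraries and 22 to 29 in the blood libraries. miR-146b-5p followed at ranks 39 to 60 in colon and 90 to 108 in blood. miR-146a-5p lay at ranks 49 to 79 in colon and 99 to 133 in blood, close to its paralog. miR-155-5p was far less abundant, at ranks 185 to 277 in colon and 315 to 368 in blood. The 3p arms had few counts: miR-21a-3p reached 15 to 141 counts in a colon library and 14 to 58 in a blood library. miR-155-5p stood above miR-21a-3p in every colon library, but in blood their ranges overlapped, 0.979 to 1.46 CPM against 0.629 to 1.46 CPM, and both had 58 counts in mouse 1.

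**Figure D1:**
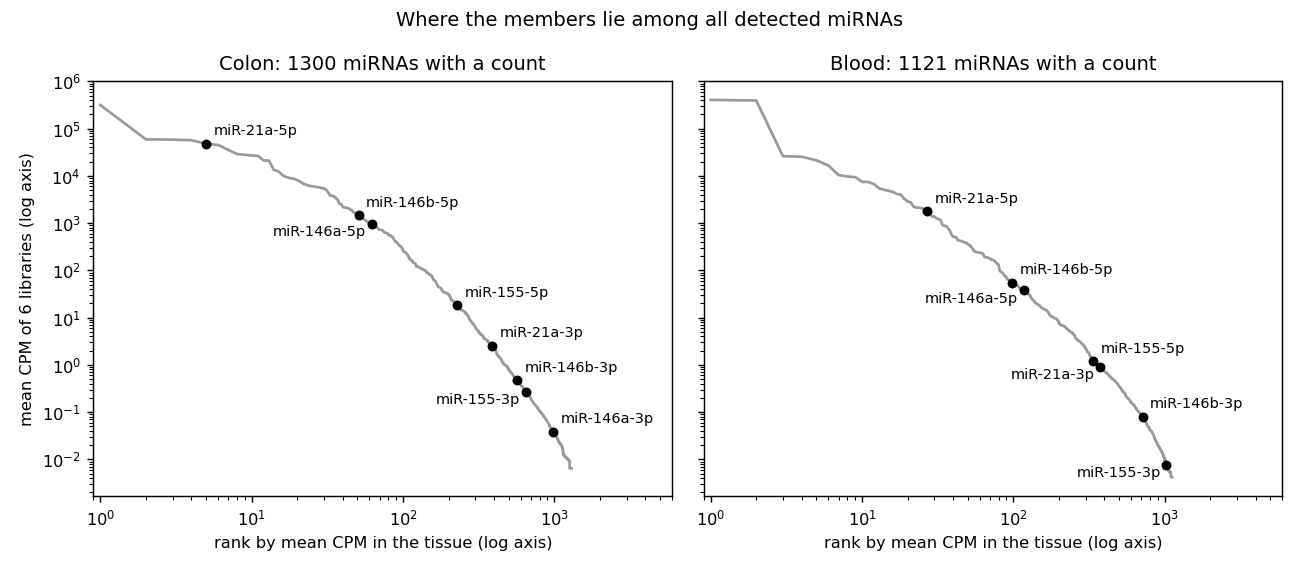
Mean CPM of the 6 libraries of a tissue (y, log axis) against the rank of the miRNA by that mean (x, log axis); the grey line holds all 1300 miRNAs with a count in colon and all 1121 in blood, and black points are members. miR-21a-5p sits near the top of both curves, miR-155-5p and, below it, miR-21a-3p in the middle and the other 3p arms lower, and miR-146a-3p is missing in blood because it had 0 counts there.

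In the colon, all 5 members that could be tested had higher mean levels in DSS mice, and miR-146a-5p and miR-155-5p passed the threshold. A miRNA was called SDE, significantly differentially expressed, when its fold change exceeded 1.5 and its p from edgeR's quasi-likelihood test, Benjamini-Hochberg adjusted over all 542 miRNAs, was 0.05 or less. Of the 542, 10.1% were SDE, 5.9% were SDE and higher in DSS mice, and 22.5% had every DSS mouse above every control mouse. Among the 5 tested members, 2 were SDE and higher, and 4 had every DSS mouse above every control mouse. Under the grouping of the disease state field the sign of all 5 turned, with log2 differences of -0.45 for miR-146a-5p, -0.40 for miR-146b-5p, -0.94 for miR-155-5p, -0.25 for miR-21a-5p and -0.21 for miR-21a-3p, and none passed (edgeR's quasi-likelihood test, adjusted p = 0.991 for each).

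miR-146a-5p, the negative regulator of NF-κB signalling, measured 1021, 1385 and 1366 CPM in DSS mice 1, 7 and 9, and 615, 854 and 656 CPM in control mice 2, 4 and 8. The lowest DSS mouse lay above the highest control. The means were 1257 ± 205 and 708 ± 128 CPM (SD, n = 3 each). The log2 fold change was 0.83 (SE 0.18), or 1.77-fold, with an adjusted p of 0.0431 in edgeR's quasi-likelihood test. Of 15 alternatives with these groups 6 kept the call. It was lost without mouse 2, 4, 7, 8 or 9, with RLE or upper-quartile factors, with limma and with all 12 libraries in 1 fit, where the log2 fold change was at least 0.71 and the adjusted p between 0.0522 and 0.293.

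miR-146b-5p, the paralog with the same seed, measured 1588, 1506 and 2360 CPM in DSS mice 1, 7 and 9, and 987, 1238 and 1175 CPM in control mice 2, 4 and 8. The groups did not overlap, and mouse 9 stood well above the other DSS mice. The log2 difference was 0.68 (SE 0.20), 1.60-fold, and was not SDE (edgeR's quasi-likelihood test, adjusted p = 0.0739). DESeq2, which fits the same counts with its own size factors, dispersion model and Wald test, called it at an adjusted p of 0.0356. Without mouse 9 the log2 difference was 0.45, under the 1.5-fold threshold. The 2 miR-146 5p arms together, which carry 1 seed, summed to 2609, 2891 and 3726 CPM in DSS mice 1, 7 and 9 and to 1602, 2093 and 1831 CPM in control mice 2, 4 and 8.

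miR-155-5p measured 16.3, 24.6 and 38.2 CPM in DSS mice 1, 7 and 9, and 8.93, 13.0 and 10.5 CPM in control mice 2, 4 and 8, from 134 to 986 counts per library. Every DSS mouse was above every control, with a wider spread than for the miR-146 arms. The means were 26.4 ± 11.02 and 10.8 ± 2.04 CPM (SD, n = 3 each). The log2 fold change was 1.29 (SE 0.33), or 2.44-fold, with an adjusted p of 0.0491 in edgeR's quasi-likelihood test. Mouse 9 set much of that size: without it the log2 fold change was 0.92 and the adjusted p 0.0780. Of 15 alternatives with these groups only 3 kept the call, which were DESeq2 (adjusted p = 0.00344), no filter on low counts (adjusted p = 0.00305) and leaving out mouse 1 (adjusted p = 0.0172). In the other 12, each with a positive log2 fold change, the adjusted p ran from 0.0517 to 0.158.

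miR-21a-5p measured 56908, 45927 and 75930 CPM in DSS mice 1, 7 and 9, and 35639, 39407 and 35050.5 CPM in control mice 2, 4 and 8. The controls were tight and the DSS mice spread, again with mouse 9 highest. The means were 59588 ± 15179.9 and 36699 ± 2364 CPM (SD, n = 3 each), a log2 difference of 0.70 (SE 0.22), 1.62-fold, which was not SDE (edgeR's quasi-likelihood test, adjusted p = 0.0863). DESeq2 called it at an adjusted p of 0.0268. By abundance it ranked 2 to 4 among all miRNAs in the DSS mice and 7 to 9 in the controls.

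Among the 3p arms, miR-21a-3p measured 3.65, 1.69 and 5.46 CPM in DSS mice 1, 7 and 9, and 2.53, 0.966 and 0.940 CPM in control mice 2, 4 and 8. The groups overlapped, and the log2 difference of 1.30 (SE 0.55) was not SDE (edgeR's quasi-likelihood test, adjusted p = 0.159). Leaving out 1 library moved it between 0.85 (without mouse 9) and 1.89 (without mouse 2), and it was SDE in none of these. The other 3p arms were too rare to be tested. miR-155-3p had 2, 7 and 25 counts in DSS mice 1, 7 and 9, and 2, 0 and 0 in control mice 2, 4 and 8. miR-146b-3p had 6, 5 and 31 counts in the DSS mice and 4, 7 and 4 in the controls, in the same order of mice. miR-146a-3p had 5 counts over all 6 colon libraries. The highest count of all 3 fell in DSS mouse 9, the colon library with the most counts. After scaling it was still the highest. It had 0.968 CPM of miR-155-3p, 1.20 of miR-146b-3p and 0.116 of miR-146a-3p. The next highest libraries had 0.395, 0.430 and 0.060 CPM in the same order.

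**Figure D2:**
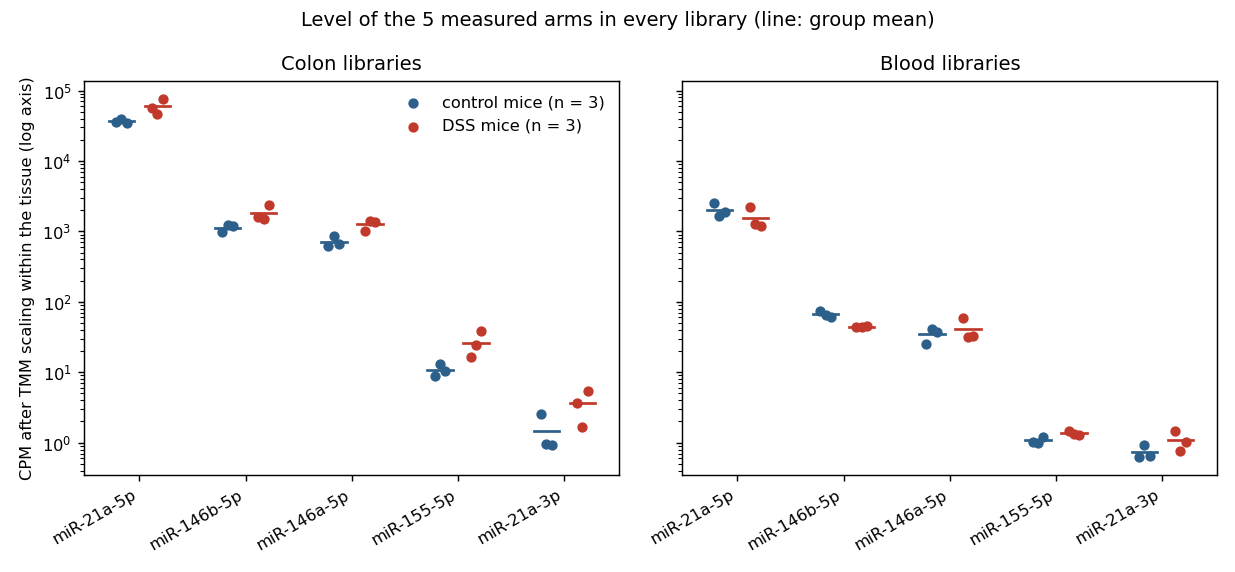
CPM (y, log axis) of the 5 members that passed the filter on low counts (x), in colon (left) and blood (right); each point is a library, red for DSS and blue for control mice, and lines are group means (n = 3). In colon the red points of the 4 5p arms lie above all blue points, while in blood those of miR-146b-5p lie below and those of miR-146a-5p and miR-21a-5p mix with the controls.

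The scaling of the libraries moved the colon differences and their calls. With total counts alone the log2 differences were 1.07 for miR-146a-5p, 0.94 for miR-146b-5p, 1.58 for miR-155-5p and 0.95 for miR-21a-5p, and with upper-quartile factors they were 0.71, 0.57, 1.18 and 0.59. The median of all tested miRNAs moved too, up by 0.22 on the log2 scale with total counts alone and by -0.12 with upper-quartile factors. Relative to that median, the log2 differences with TMM factors were 0.78, 0.64, 1.24 and 0.66 for the 4 arms in the same order. A scaling factor moves every miRNA of a library alike, so values relative to the median are nearly equal under any scaling by construction and were not used as a check. The middle 50% of all tested miRNAs lay between -0.35 and 0.46 before this centring, below the uncentred TMM value of each of the 5 members.

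**Figure D3:**
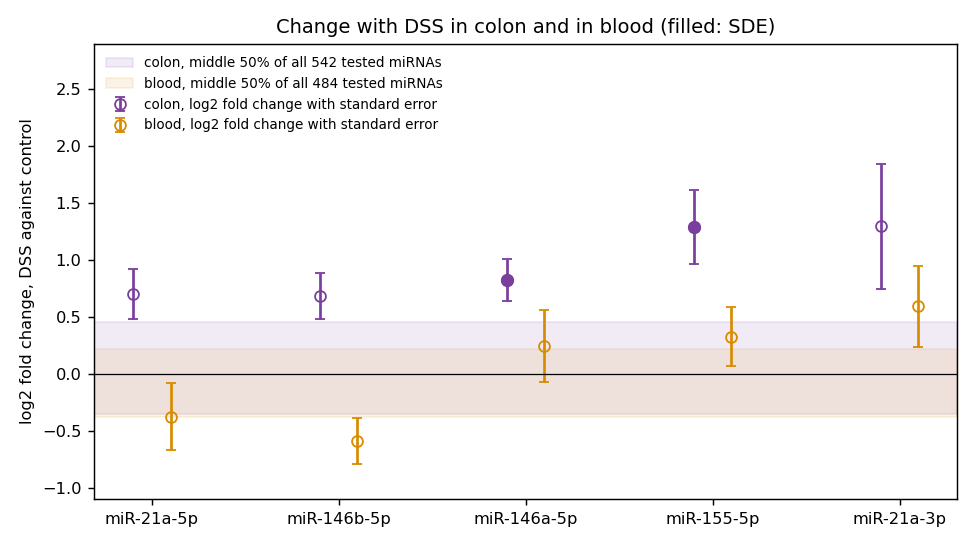
Log2 fold change of DSS against control mice (y) for the 5 tested members (x) in colon (purple) and blood (orange), with standard errors; filled points were SDE, and the shaded bands hold the middle 50% of all tested miRNAs of each tissue. The colon points run from 0.68 to 1.30, above the colon band, with miR-146a-5p and miR-155-5p filled, and the blood points run from -0.59 to 0.59 with none filled.

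The marker miRNAs of several cell types stood at different levels in the colon of DSS and control mice. In bulk tissue, fewer cells of a type and less RNA per cell cannot be told apart. The 8 epithelial miRNAs all had negative differences, 4 of them SDE, with a median log2 difference of -1.08 against 0.04 for all tested miRNAs, and their summed level was 52900 to 122000 CPM in DSS mice and 156000 to 195000 CPM in controls. The 4 myeloid miRNAs (miR-223 and miR-142a, both arms) all had positive differences with a median of 1.71, 2 of them SDE, and summed to 369 to 1120 CPM in DSS mice and 254 to 379 CPM in controls. The 3 stromal miRNAs had positive differences with a median of 0.53, 1 of them SDE, and summed to 5010 to 5700 CPM against 3490 to 3690 CPM. Of the 4 smooth muscle and 3 lymphocyte miRNAs none was SDE, nor was any of the 4 erythroid miRNAs tested in colon. No listed marker was at 0 in all 6 libraries. The part of these shifts in the higher level of miR-146a-5p, miR-155-5p and the other members was not tested.

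Other miRNAs of innate immune signalling moved both ways in the colon. Of 15 listed as induced by or acting on Toll-like receptor, NF-κB or STAT3 signalling, 14 were tested, 4 were SDE and higher, 1 was SDE and lower, and the median log2 difference was 0.25 against 0.04 for all tested miRNAs. The 4 higher ones were the arms of miR-132 and miR-212, which lie in 1 cluster and are known targets of CREB as well as of innate stimuli. Their log2 fold changes were 1.55 for miR-132-3p, 1.30 for miR-132-5p, 1.89 for miR-212-3p and 1.41 for miR-212-5p, all above those of miR-146a-5p and miR-155-5p (edgeR's quasi-likelihood test, adjusted p = 0.0422, 0.0431, 0.0431 and 0.0147). miR-187-3p, which is linked to interleukin-10 in monocytes, fell by 0.91 on the log2 scale (adjusted p = 0.0427, same test). The remaining 9 tested were not SDE.

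In blood, none of the 5 tested members was SDE, and their differences did not share a direction. Of all 484 miRNAs tested in blood 0 were SDE (0%), 56 had an unadjusted p under 0.05, and DESeq2 called 12, none of them a member. Every DSS mouse was above every control mouse for 7.44% of the 484 and below for 9.92%. Among the 5 tested members, 1 was non-overlapping and higher and 1 non-overlapping and lower. The blood median of all tested miRNAs was -0.05 on the log2 scale, and total counts alone moved it up by 0.21.

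miR-146b-5p was the lower one. It measured 43.7, 43.7 and 45.0 CPM in DSS mice 1, 7 and 9, and 74.4, 64.9 and 60.4 CPM in control mice 2, 4 and 8. The DSS mice were almost equal and all lay below the controls, opposite to the colon of the same mice. The means were 44.1 ± 0.734 and 66.6 ± 7.16 CPM (SD, n = 3 each), a log2 difference of -0.59 (SE 0.20), which was not SDE (edgeR's quasi-likelihood test, adjusted p = 0.360). It was -0.36 with total counts alone and -0.30 with all 12 libraries in 1 fit. With the disease state grouping its sign turned, to 0.30.

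miR-155-5p was the higher one, at 1.46, 1.32 and 1.29 CPM in DSS mice 1, 7 and 9, and 1.03, 0.979 and 1.221 CPM in control mice 2, 4 and 8. These values rest on 17 to 58 counts a library. The groups just failed to touch, and the log2 difference of 0.33 (SE 0.26) was not SDE (edgeR's quasi-likelihood test, adjusted p = 0.697).

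miR-146a-5p measured 58.3, 31.5 and 33.2 CPM in blood of DSS mice 1, 7 and 9, and 25.4, 41.7 and 36.8 CPM in control mice 2, 4 and 8. Mouse 1 alone carried the positive difference: the log2 value was 0.24 with it and -0.05 without it (edgeR's quasi-likelihood test, adjusted p = 0.833 and 0.973). miR-21a-5p measured 2189, 1267 and 1204 CPM in the DSS mice and 2501, 1668 and 1879 CPM in the controls, in the same order. Mice 7 and 9 lay below all controls and mouse 1 among them, for a log2 difference of -0.38 (SE 0.29, adjusted p = 0.689 in edgeR's quasi-likelihood test), which was -0.65 without mouse 1, -0.15 without mouse 2 and -0.18 without mouse 7 or 9. It was -0.10 with total counts alone and -0.037 with all 12 libraries in 1 fit. miR-21a-3p measured 1.46, 0.774 and 1.02 CPM in the DSS mice and 0.629, 0.921 and 0.645 CPM in the controls, and the groups overlapped (log2 difference 0.59, SE 0.36, adjusted p = 0.568, same test). Without mouse 1 that difference was 0.35. The positive blood differences grew under the same settings, to 0.54 and 0.57 for miR-146a-5p, 0.54 and 0.61 for miR-155-5p and 0.88 and 0.91 for miR-21a-3p with total counts alone and with all 12 libraries in 1 fit, and none was SDE. Mouse 1 had the highest blood level, in CPM, of miR-146a-5p, miR-155-5p and miR-21a-3p, and its library was the second deepest of the blood libraries. The deepest, of mouse 7, had 31.5, 1.32 and 0.774 CPM of these 3 arms.

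The other 3p arms were at or near 0 in blood. miR-146a-3p had 0 of the 6387 counts of its hairpin there, which allows a share of up to 0.0470% when the limit is set at 3 counts of that total. miR-155-3p had 1 count and miR-146b-3p 11 counts over the 6 blood libraries. Of the lists of marker and immune miRNAs none had an SDE member in blood. The erythroid miRNAs summed to 580000 to 865000 CPM in blood of DSS mice and 637000 to 1140000 CPM in controls. CPM were taken after TMM scaling, so a sum can exceed 1000000. Most of it was miR-486a-5p and miR-486b-5p, with means of 359813 and 374292 CPM in DSS mice and 429285 and 438748 CPM in controls. How far these near-equal entries count the same reads was not tested. miR-451a had means of 7861 CPM in DSS mice and 11608.5 CPM in controls.

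The difference of the DSS effects in the 2 tissues was tested as an interaction over all 12 libraries. All 5 tested members had a less positive effect in blood than in colon, with differences of -0.22 for miR-146a-5p, -0.94 for miR-146b-5p, -0.64 for miR-155-5p, -0.69 for miR-21a-5p and -0.34 for miR-21a-3p on the log2 scale, while the median of all 680 miRNAs was 0.22. That median turned to -0.18 with RLE factors, -0.20 with DESeq2 and -0.10 with total counts alone. Leaving out 1 library moved these to between -0.70 and 0.056 for miR-146a-5p, -1.09 and -0.79 for miR-146b-5p, -0.88 and -0.34 for miR-155-5p, -1.16 and -0.40 for miR-21a-5p, and -0.94 and -0.064 for miR-21a-3p. The value nearest to or past 0 came without blood of mouse 9 for miR-146a-5p, miR-146b-5p and miR-21a-5p, without blood of mouse 8 for miR-155-5p and without colon of mouse 4 for miR-21a-3p. The most negative came without blood of mouse 1 for miR-146a-5p and miR-21a-5p, without blood of mouse 4 for miR-146b-5p, without colon of mouse 1 for miR-155-5p and without colon of mouse 2 for miR-21a-3p. In simulated data edgeR's interaction test recovered 38% of log2 changes of 2, against 94% for the colon test and 95% for the blood test. In the data none of the 5 members was SDE, nor was any of the 680 (0%), of which 94 had an unadjusted p under 0.05. miR-146b-5p was nearest, with an unadjusted p of 0.0211 and an adjusted p of 0.300 in edgeR's quasi-likelihood test. It was SDE with RLE factors (adjusted p = 0.0439) and with DESeq2 (adjusted p = 0.00016, 1 of 36 calls). With the mouse as a block 1 miRNA of the 680 was SDE, miR-148a-3p, named after its value was seen, and miR-146b-5p was not (adjusted p = 0.537).

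All 4 5p arms were much higher in colon than in blood. With all 12 libraries scaled together, miR-21a-5p measured 27106 to 57427 CPM in colon and 1364 to 3640 CPM in blood, and miR-146a-5p 489 to 1077 CPM and 27.8 to 96.9 CPM. miR-146b-5p measured 786 to 1785 CPM in colon and 50.9 to 85.4 CPM in blood, and miR-155-5p 7.11 to 28.9 CPM and 1.02 to 2.43 CPM. No blood library reached the lowest colon library for any of the 4. The colon level was 15.4 times the blood level for miR-21a-5p, 14.6 times for miR-146a-5p, 15.7 times for miR-146b-5p and 8.13 times for miR-155-5p, with adjusted p of 1.11e-09, 2.57e-09, 5.40e-11 and 3.92e-08 in edgeR's quasi-likelihood test. These folds depended on the scaling. The log2 differences of blood against colon for the 4 arms, in that order, were -3.94, -3.87, -3.98 and -3.02 with TMM factors, -2.77, -2.68, -2.77 and -1.84 with upper-quartile factors, and -4.69, -4.61, -4.74 and -3.79 with total counts alone, and each arm was SDE and lower in blood under all 3. Such calls were the rule between these tissues: 88.7% of the 680 tested miRNAs were SDE and 51% were SDE and lower in blood, and the median of all was -0.86 on the log2 scale. That balance depended on the scaling too: 256 were SDE and higher in blood and 347 lower with TMM factors, 316 and 298 with upper-quartile factors (median 0.33), and 217 and 380 with total counts alone (median -1.59). Relative to the TMM median the log2 difference of blood against colon was -3.09, -3.01, -3.12 and -2.17 for the 4 arms, in the order just given. RNA of the tissues was isolated with different kits, so tissue and kit cannot be told apart.

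miR-21a-3p differed less clearly between the tissues. Its log2 difference of blood against colon was -0.61 (SE 0.35) and not SDE (edgeR's quasi-likelihood test, adjusted p = 0.114). Relative to the median of all miRNAs it was 0.25, and with upper-quartile factors the raw difference turned to 0.56. It was SDE and lower in blood with total counts alone (-1.38, adjusted p = 0.00377 in edgeR's quasi-likelihood test), without a filter on low counts (-0.84, adjusted p = 0.00967), and without the blood library of mouse 1 (-0.85) or the colon library of mouse 7 (-0.80) or 8 (-0.92). The 3p arm made up 0.0523% of the miR-21a counts in blood (exact 95% interval 0.0444 to 0.0613) and 0.00547% in colon (0.00486 to 0.00614), intervals that cover counting error alone. The 2 arms come from 1 hairpin, and their ratio within a library needs no scaling between tissues.

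The 5p arm dominated each of the 4 hairpins. The 3p share in colon was 0.00463% for miR-146a (5 of 107958 counts), 0.0348% for miR-146b (57 of 163953) and 1.63% for miR-155 (36 of 2204, exact interval 1.15 to 2.25). Of the 36 miR-155-3p counts 25 came from DSS mouse 9, and without that library, left out after the data were seen, the share was 0.922% (11 of 1193, exact interval 0.461 to 1.64). It was the highest of the 4 shares with and without mouse 9. That of miR-146a was 0.00275% without mouse 9. In blood the 3p share of miR-146b was 0.127% (11 of 8639, exact interval 0.0636 to 0.228), or 0.0799% without mouse 4, and that of miR-155 was 0.490% (1 of 204, exact interval 0.0124 to 2.70), its only count being that of mouse 9.

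Ratios within a library were compared between DSS and control mice where both arms had counts in every library, 5 ratios in all, with 0.5 added to each count. Two-sided exact permutation tests were used, whose smallest possible p with 3 against 3 mice is 0.1. In blood, the ratio of the 5p to the 3p arm of miR-21a was 1490, 1600 and 1160 in DSS mice 1, 7 and 9 and 3840, 1760 and 2840 in control mice 2, 4 and 8. The groups did not overlap, but DSS mouse 7 and control mouse 4 lay close together, on 24 and 16 counts of the 3p arm. The log2 difference of -0.93 did not pass (exact permutation p = 0.1, adjusted over the 5 ratios 0.25). In colon the ratio was 15400, 26700 and 13900 in the DSS mice and 13900, 39500 and 36100 in the controls, which overlap (log2 difference -0.60, exact permutation p = 0.3, adjusted 0.5). For miR-146b in colon the arm ratio was 1940 to 4860 in DSS mice and 2730 to 4160 in controls, also overlapping (log2 difference -0.07, exact permutation p = 1, adjusted 1).

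The ratio of miR-146a-5p to miR-146b-5p in blood was 1.33, 0.720 and 0.739 in DSS mice 1, 7 and 9 and 0.342, 0.643 and 0.610 in control mice 2, 4 and 8. The groups did not overlap, but mice 7 and 9 lay just above the highest control, and mouse 1 was the only one of the 12 libraries with more miR-146a-5p than miR-146b-5p. The log2 difference of 0.80 did not pass (exact permutation p = 0.1, adjusted 0.25). In colon the ratio was 0.643, 0.919 and 0.579 in the DSS mice and 0.623, 0.690 and 0.559 in the controls. These overlapped, with a log2 difference of 0.17 (exact permutation p = 0.6, adjusted 0.75). Under the disease state grouping the blood differences turned sign, to 0.31 for the miR-21a arms and -0.05 for the paralogs.

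**Figure D4:**
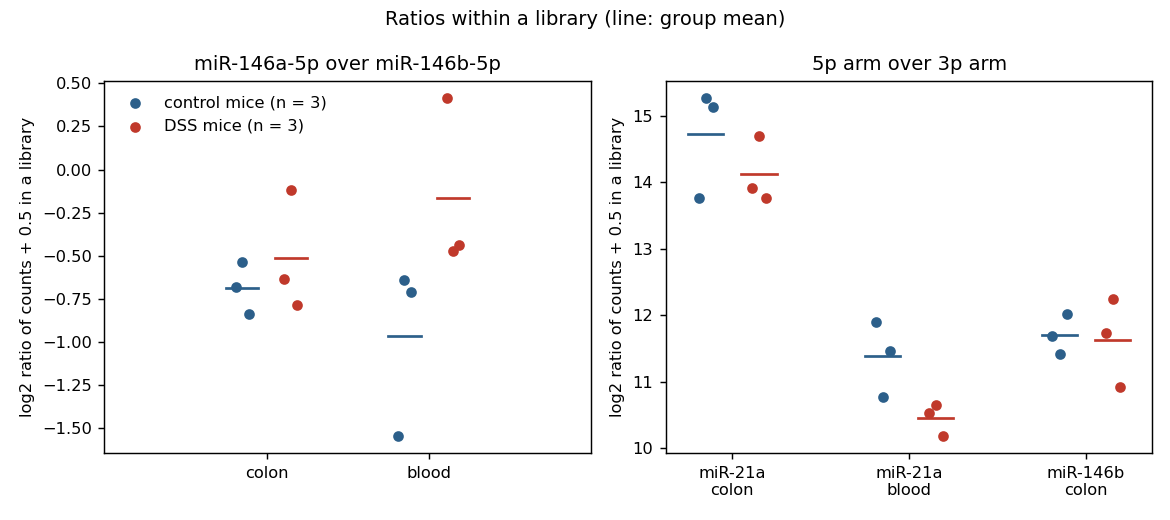
Log2 ratio of counts within a library (y), with miR-146a-5p over miR-146b-5p on the left and the 5p over the 3p arm on the right; points are libraries, red for DSS and blue for control mice, and lines are group means (n = 3). The groups separate in blood for the paralogs (0.720 to 1.33 against 0.342 to 0.643 as plain ratios) and for miR-21a (1160 to 1600 against 1760 to 3840), and overlap in colon.

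The 5p arms varied together within the colon, and miR-21a-3p followed them less closely. Pearson's r of log2(CPM + 1) over the 6 libraries, which include both groups, was 0.86 between miR-146a-5p and miR-146b-5p, 0.95 between miR-146b-5p and miR-155-5p, and 0.97 between miR-146b-5p and miR-21a-5p. The other 3 pairs of 5p arms had r of 0.80 to 0.95. Between miR-21a-3p and the 5p arms r was 0.49 for miR-146a-5p, 0.61 for miR-155-5p, 0.70 for miR-146b-5p and 0.85 for miR-21a-5p. In blood the 6 pairs of 5p arms had r of -0.89 to 0.60. The 2 of 537 other miRNAs whose colon pattern was most like miR-146a-5p were miR-342-5p (r = 0.977) and miR-543-3p (r = 0.974). For miR-146b-5p they were miR-298-5p (r = 0.979) and miR-1306-3p (r = 0.968), for miR-155-5p miR-298-5p (r = 0.974) and miR-543-3p (r = 0.972), and for miR-21a-5p miR-673-5p (r = 0.987) and miR-1306-3p (r = 0.971). Among 479 candidates in blood, those most like miR-146a-5p were miR-1931 (r = 0.983) and miR-24-3p (r = 0.963), and those most like miR-146b-5p were miR-1839-5p (r = 0.997) and let-7i-5p (r = 0.976). For miR-155-5p they were miR-664-5p (r = 0.996) and miR-1927 (r = 0.961), and for miR-21a-5p miR-3962 (r = 0.954) and miR-142a-3p (r = 0.947). miRNAs named for colon and those named for blood were different ones for every arm. All points share their library's depth and group, and with 6 points and so many candidates high values are easily found.

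The near copies of miR-21a overlapped between the groups in the colon. miR-21b measured 3.04 ± 1.51 CPM in DSS mice and 2.74 ± 0.955 CPM in controls, and miR-21c 1.46 ± 1.49 CPM and 1.83 ± 0.854 CPM (SD, n = 3 each). In blood they had 19 and 15 counts over all 6 libraries.

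**Figure D5:**
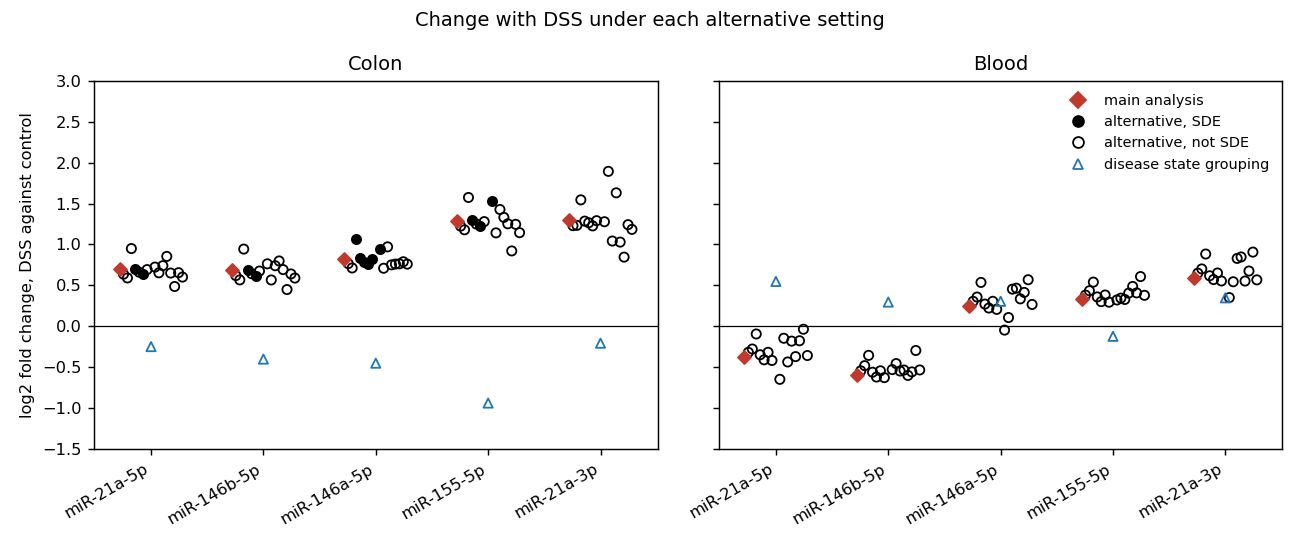
Log2 fold change of DSS against control mice (y) for each tested member (x) in colon (left) and blood (right) under every alternative setting; red diamonds are the values of the report, filled circles alternatives in which the member was SDE, open circles those in which it was not, and blue triangles the disease state grouping. In colon every circle lies above 0 and most are open, every triangle lies below 0, and in blood no symbol but the diamonds is filled.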

How the data were processed

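Small RNA libraries of colon and whole blood from 3 DSS and 3 control mice were analysed. The authors trimmed reads with Flexbar, collapsed them with fastx-toolkit and counted them on mature miRNAs of miRBase 22 with miRDeep2 (2.0.1.0), and deposited unnormalized counts. Normalized signal tables, 1 a tissue, were deposited too and hold the count divided by a DESeq2 (1.22.2) size factor. They were used here for sequences and 1 alternative. The submitters' processing notes name GRCm38.

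The tests used edgeR (4.0.16) in R (4.3.3): filterByExpr (minimum count 10), TMM factors, glmQLFit and glmQLFTest, without covariates, in the 6 libraries of a tissue, and in all 12 for the interaction and for blood against colon. Standard errors are the log2 fold change over the square root of F. Of the 8 members, 5 passed the filter in each tissue. Ratios and intervals used Python (3.11.15) and scipy (1.17.1). The alternatives included DESeq2 (1.42.0) and limma (3.58.1). The test scripts were tested on simulated data.

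The named miRNAs were the members, their near copies, the 2 miRNAs most like each 5p arm in each tissue and the SDE ones of the immune list. Markers of cell types are named as parts of their lists, and miRNAs named for counts of 5 or fewer were chosen after their values were seen. Mouse numbers pair the tissues by animal, and deviations from the group means of the same mouse correlated between colon and blood at -0.30 to 0.16 over 357 miRNAs. The members and lists were chosen with earlier results of these data known. Counts come from reads without stated molecular identifiers. Total counts of every blood library exceeded the mapped reads per sample that the study gives, so a count there is not always a separate read. Without miR-486b-5p, whose mean level nearly equalled that of miR-486a-5p, the blood totals ran from 12576850 to 19440965. Blood CPM were computed with both entries included. Positions are from GENCODE M21, hairpins from RefSeq. P-values measure the spread between these mice.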

Additional observations from a re-analysis of the deposited data

Results flagged for a closer look

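miR-146b-5p had differences of opposite sign in the tissues of the same mice, and was SDE in neither (adjusted p = 0.0739 in colon and 0.360 in blood, edgeR's quasi-likelihood test). Every DSS mouse lay above every control mouse in colon (1506 to 2360 against 987 to 1238 CPM) and below every control mouse in blood (43.7 to 45.0 against 60.4 to 74.4 CPM). The difference of the DSS effects, blood minus colon, was -0.94 on the log2 scale (SE 0.36). The interaction in edgeR's quasi-likelihood test gave an unadjusted p of 0.0211 and an adjusted p of 0.300, or 0.537 with the mouse as a block, and over its alternatives with the groups of the report the adjusted p ran from 0.00016 to 0.537. The log2 differences of miR-146a-5p, with the same seed, were 0.83 in colon and 0.24 in blood. With the disease state grouping the interaction of miR-146b-5p was 0.51.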

How the results depend on the processing

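In colon, each tested member kept its positive direction in all 15 alternatives with the groups of the report. miR-146a-5p was SDE in 6 of the 15, miR-155-5p in 3, miR-146b-5p and miR-21a-5p in 2 each (DESeq2 and no filter on low counts) and miR-21a-3p in 0. The log2 fold change ran from 0.71 to 1.07 for miR-146a-5p and from 0.92 to 1.58 for miR-155-5p. The calls therefore sit close to the threshold, and the cause of the lost ones was not tested. The 55 SDE miRNAs of colon (32 higher, 23 lower) became 16 with RLE factors (6 higher, 10 lower), 8 with upper-quartile factors (4 and 4), 35 with entries of identical counts kept once, 0 with all 12 libraries in 1 fit, 77 with DESeq2 (43 and 34), 76 without a filter (44 and 32), and 0 to 44 without 1 library, with 0 when mouse 2, 4, 7 or 8 was left out. Total counts alone gave 38 higher and 9 lower and limma 14 and 23. In blood the 0 calls became 25 without a filter, 12 with DESeq2, 1 with all 12 libraries (miR-149-5p) and 0 to 1 without 1 library (miR-122-5p, without mouse 2). For the interaction the 0 calls became 8 with RLE factors, 27 without a filter, 36 with DESeq2, 3 with at least 10 counts in every library (miR-126a-3p, miR-212-5p and miR-374b-5p) and 0 to 1 without 1 library (miR-223-5p without blood of mouse 1, miR-126a-3p without blood of mouse 4). Those named here for counts of 5 or fewer were named after their values were seen. Between tissues the 603 calls became 244 with at least 10 counts in every library, where 288 miRNAs were tested in place of 680, and 613 to 625 without 1 library.

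With the mouse as a replicate block, 1 miRNA was SDE for the interaction and 597 between tissues, and no member changed its call.

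With the disease state grouping 0 miRNAs were SDE in colon, and the colon differences were -0.45 (miR-146a-5p), -0.40 (miR-146b-5p), -0.94 (miR-155-5p), -0.25 (miR-21a-5p) and -0.21 (miR-21a-3p). In blood it turned miR-146b-5p to 0.30, miR-155-5p to -0.12 and miR-21a-5p to 0.55, and for the interaction the 5 members, in the order given for colon, to 0.73, 0.51, 0.75, 0.68 and 0.53. It turned the paralog ratio to -0.036 in colon and -0.050 in blood and the arm ratio of miR-21a in blood to 0.31. Without 1 library, miR-146a-5p ran from -0.048 (without mouse 1) to 0.46 in blood, and its interaction from -0.70 to 0.056, with positive values without blood of mouse 8 (0.033) or 9 (0.056). miR-21a-3p turned to 0.56 between tissues with upper-quartile factors. Without 1 library, the log2 difference of the arm ratio ran from -0.38 to 0.28 for miR-146b in colon (0.08 without mouse 8, 0.28 without mouse 9), -1.08 to -0.32 for miR-21a in colon and -1.23 to -0.67 in blood, and that of the paralog ratio from -0.027 (without mouse 7) to 0.31 in colon and 0.51 to 0.97 in blood.

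Low counts limit what can be said of the 3p arms, which held 0 to 31 counts a library apart from miR-21a-3p.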
